A study of Mus musculus with 18 samples.

Results

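Estradiol given without particles was compared with vehicle in J774 cells, a mouse macrophage line, on 3 arrays per group, which are 6 of the 18 arrays of the series. The 6 arrays were taken by their labels, as the arrays labelled estrogen and the arrays labelled vehicle control. This comparison was chosen with earlier results of these data known. All cells grew in DMEM without phenol red, a dye with weak estrogen-like activity, supplemented with 10% FBS. The labels do not say whether the serum was stripped of steroids. In 24-well plates the estradiol group received 2 µg/mL of 17-β estradiol for 24 h, a dose in the micromolar range and far above circulating levels of the hormone, and the control group received a vehicle that is not named. The other 12 arrays held the same hormone contrast with particles, talc or titanium dioxide (TiO2) at 10 µg in each well, again on 3 arrays per group. These 2 particle arms share no array with the 6 described here. Whether the 3 arrays per group were separate cultures of this 1 line is not stated, and all p-values rest on the spread among these arrays, part or all of which may be technical. Arrays were numbered group by group, so array order and treatment cannot be told apart.

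Estradiol acts in most cells through the nuclear receptors ERα (Esr1) and ERβ (Esr2), which bind estrogen response elements in DNA or are tethered to other factors such as AP-1 and NF-kB. A membrane receptor, Gper1, signals through G proteins. In macrophages the hormone is best known for tempering inflammatory gene expression and for effects on lipid handling.

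Values are log2 intensities averaged over the probe sets of a gene, and a difference of 1 log2 unit is 2-fold. Over the 6 arrays the median intensity was between 46.4 and 48.0 units, and 23102 genes were measured. Of 26 macrophage identity genes 25 gave signals above the median level of all genes, at a median percentile of 93.9. Probes differ in brightness, so a percentile here places a signal and does not compare the abundance of genes. Of the marker genes of other cell types, 3 of 11 for fibroblasts, 2 of 11 for epithelium, 2 of 9 for endothelium, 0 of 9 for lymphocytes and 0 of 10 for granulocytes and mast cells stood above it. The summed intensity of the macrophage genes was between 30318 and 31746 units on the vehicle arrays and between 30362 and 31694 on the estradiol arrays, and the summed levels of the other 5 marker lists overlapped between the groups as well. In RNA from whole cultures, fewer cells of a type and less RNA per cell cannot be told apart.

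No gene passed the test for estradiol against vehicle. With limma's moderated test and Benjamini-Hochberg adjustment over all genes, 0 of 23102 genes were higher (0%) and 0 lower (0%) at an adjusted p under 0.05, and the smallest adjusted p was 0.534. At an unadjusted p under 0.05 there were 1124 genes, 4.87% of those tested, of which 581 (2.51%) were higher and 543 (2.35%) lower with the hormone. That share is near the threshold itself. The 3 arrays of a group lay wholly above or below the other 3 for 2447 genes (10.6%), 1133 (4.9%) of them higher and 1314 (5.69%) lower with estradiol.

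The distances between arrays of the 2 groups overlapped those between arrays of a group. Among the 11551 brighter genes, the median absolute difference between 2 arrays was between 0.12 and 0.15 log2 units within vehicle, between 0.12 and 0.15 within estradiol, and between 0.12 and 0.16 across the groups. On the first principal component of the 6 arrays, which held 28% of the variance, the vehicle arrays had scores of 7.25, -6.93 and -13.24 and the estradiol arrays of 11.47, 6.18 and -4.73. The scores of the groups overlapped.

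**Figure D1:**
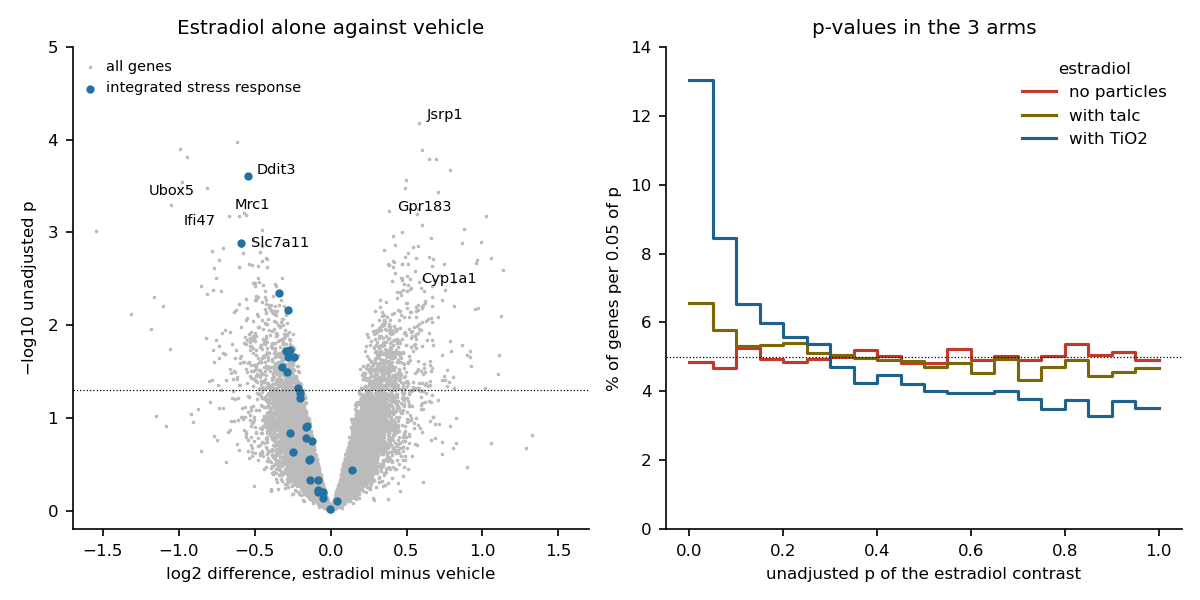
Left, log2 difference between estradiol and vehicle (x axis) against −log10 of the unadjusted p (y axis) for 23102 genes in grey, with 30 integrated stress response genes in blue and a dotted line at the 0.05 level. Right, percent of genes (y axis) in each interval of unadjusted p (x axis) for estradiol without particles, with talc and with TiO2, with a dotted line at 5%. Without particles 4.87% of genes lay in the lowest interval, and the curve was flat.

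The data bound how large a difference in a gene's mean over its probe sets could have been, given the spread among these arrays. A change confined to some probe sets of a gene is diluted in that mean. The log2 difference had a median of -0.0046 over all genes, and the quartiles lay at -0.10 and 0.10. The median standard error was 0.15 log2 units, and 0.13 for the brighter genes. The 95% confidence interval lay within 1 log2 unit of 0 for 97.5% of genes, and for 99.3% of the brighter ones. It lay within 0.5 units for 64.6% of all genes and 82.3% of the brighter ones. A single responding gene with the median standard error would have had to differ by 1.07 log2 units to pass after adjustment over all genes, so isolated responses smaller than 2-fold were mostly not detectable with this number of arrays. In all, 19 genes (0.0822%) differed by more than 2-fold, 10 higher and 9 lower, and 4 of these stood above the median level of all genes.

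The estrogen receptors gave low to moderate signals. Esr1 stood at percentile 60.6 of all genes, with log2 intensities of 5.87, 5.61 and 6.02 on the vehicle arrays and 5.89, 6.07 and 5.81 on the estradiol arrays. The groups overlapped, and the difference was 0.09 with a 95% confidence interval from -0.23 to 0.41. Esr2 stood at percentile 45.1, with 4.48, 4.16 and 4.61 against 4.48, 4.38 and 4.58, a difference of 0.07 (95% confidence interval -0.22 to 0.35). Gper1, at percentile 33.5, had 3.91, 4.17 and 3.99 against 3.93, 3.86 and 4.0, a difference of -0.10 (-0.33 to 0.14). Esr2 and Gper1 overlapped between the groups as well.

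The other receptors gave values as near to 0. The estrogen-related orphan receptors Esrra, Esrrb and Esrrg, which bind related DNA sites without estradiol, differed by 0.04, -0.04 and 0.10. The progesterone receptor Pgr, a standard estrogen-induced gene in breast and uterus, differed by -0.09 (-0.41 to 0.23), and the glucocorticoid receptor Nr3c1 by -0.02 (-0.21 to 0.17). Of these 8 receptors 0 reached an unadjusted p under 0.05 and 0 separated the groups. Their median difference was 0.009, with all genes at -0.0046, and -0.01 when array medians were subtracted.

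Of 25 coregulators of the receptor, 19 were below 0, with a median of -0.08, and 0 reached an unadjusted p under 0.05. The coactivator Ncoa2 read 8.81, 8.69 and 8.81 with vehicle and 9.01, 8.99 and 8.91 with estradiol (0.20, -0.06 to 0.47). The cochaperone Ptges3, which helps hold steroid receptors ready for ligand, read 8.84, 8.77 and 8.82 against 8.57, 8.62 and 8.65 (-0.20, -0.43 to 0.03). In these 2 genes the groups did not overlap, in opposite directions. Over the list the arrays lay wholly higher for 1 gene and wholly lower for 3, where the shares of all genes were 4.9% and 5.69%. The list mean was 8.09, 8.09 and 8.13 with vehicle and 8.06, 8.06 and 8.01 with estradiol, without overlap.

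Genes that estradiol induces in classical target tissues did not lean one way. Of 31 estrogen responsive genes, 14 were above 0 and 17 below, 1 was higher and 2 were lower at an unadjusted p under 0.05 (2.51% and 2.35% of all genes), and the median was -0.03, with a sign that changed in 6 of 16 alternative settings. Greb1, an early target of ERα and a cofactor of it, read 4.20, 3.93 and 3.93 with vehicle and 4.26, 3.84 and 3.70 with estradiol, a difference of -0.08 (-0.45 to 0.28), at percentile 31.7. The lysosomal protease Ctsd gave one of the brightest signals, at percentile 99.9. It read 12.09, 12.08 and 12.09 against 12.12, 12.06 and 12.11, a difference of 0.01 (-0.19 to 0.21).

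The transcription factor Xbp1, which serves the secretory pathway, differed by -0.06 (-0.27 to 0.16), and Igfbp4, which binds insulin-like growth factors, by 0.13 (-0.08 to 0.34). The cyclin Ccnd1 separated the groups by a narrow gap, with 10.81, 10.78 and 10.71 against 10.93, 10.87 and 10.82 (0.10, -0.08 to 0.29). The 4 members with the smallest p were the amino acid transporter Slc7a5 (-0.29), the transcription factor Myb (-0.35), the early response gene Ier3 (0.40) and the transcription factor Egr3 (-0.31). Ier3 read 9.49, 9.53 and 9.24 with vehicle and 9.73, 10.0 and 9.75 with estradiol. Its groups did not overlap, and its adjusted p was 0.998 with limma.

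Enzymes that make, convert or clear estradiol gave values in both directions. Of 21 measured, 9 were above 0 and 12 below, and 0 reached an unadjusted p under 0.05. Sult1e1, the estrogen sulfotransferase, differed by -0.19 (-0.64 to 0.26). Hsd17b4, which oxidises estradiol, differed by -0.12 (-0.39 to 0.14), and Hsd17b1, which makes estradiol from estrone, by -0.21 (-0.52 to 0.10).

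One enzyme of estrogen oxidation had a larger value. Cyp1a1, which hydroxylates estradiol and is induced through the aryl hydrocarbon receptor, read 3.35, 3.77 and 3.74 with vehicle and 3.93, 4.29 and 4.21 with estradiol, so that all 3 estradiol arrays were the higher. The difference was 0.53 ± 0.15 (SE; 95% confidence interval 0.20 to 0.85), 1.44-fold, with an adjusted p of 0.853 with limma. Its signal was low, at percentile 30.5, and 7 of its 8 probe sets were in the same direction. Tiparp, another target of that receptor, read 8.44, 8.29 and 8.29 against 8.70, 8.71 and 8.45 (0.28, -0.05 to 0.61), without overlap. Cyp1b1, also a target, went the other way without overlap (-0.19, -0.45 to 0.06), and the receptor Ahr differed by -0.06 (-0.34 to 0.21). In this list the arrays lay wholly higher for 2 genes and wholly lower for 2, Cyp1b1 and Por. The shares of all genes were 4.9% and 5.69%. Over the 18 genes of this list the median was -0.03, and 0.06 with the brightest probe set of each gene, a setting that moved the median of all genes from -0.0046 to 0.04.

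**Figure D2:**
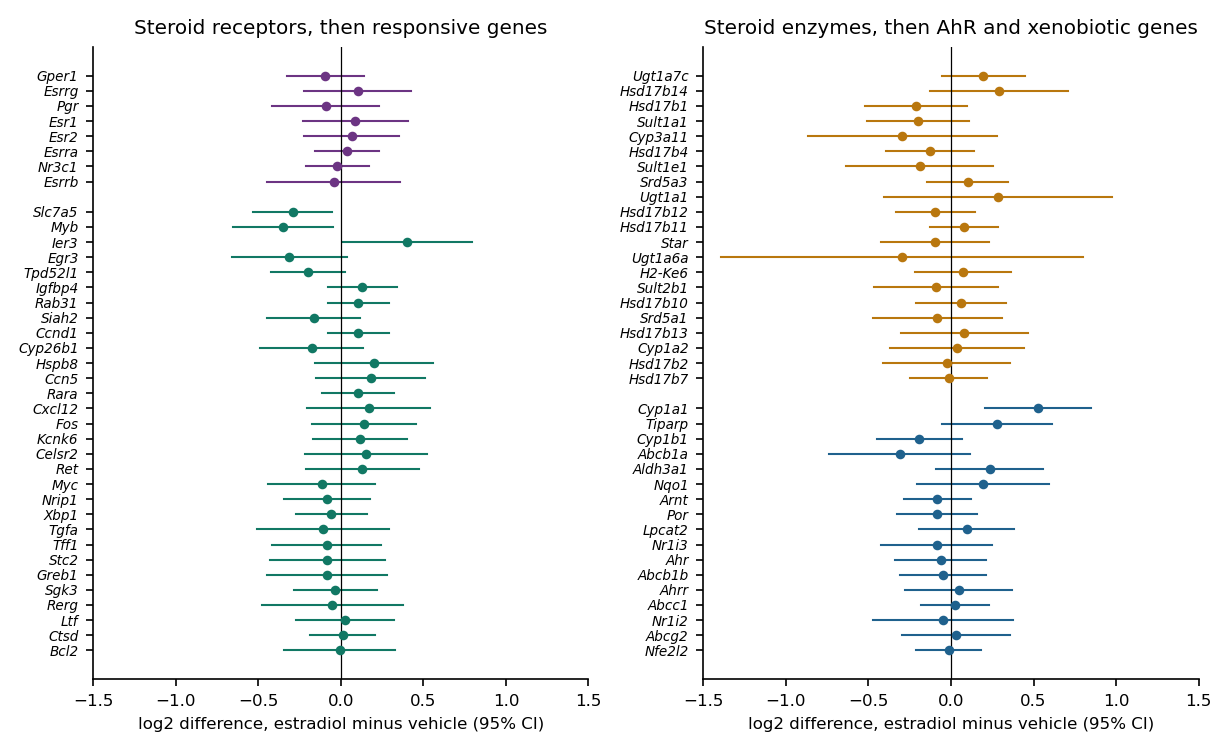
Log2 difference between estradiol and vehicle (x axis) with its 95% confidence interval for single genes (y axis), 3 arrays against 3. Left, steroid receptors above and estrogen responsive genes below; right, steroid enzymes above and aryl hydrocarbon receptor (AhR) and xenobiotic genes below. Nearly all intervals cross 0, and that of Cyp1a1 runs from 0.20 to 0.85.

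The pattern that stood furthest from the other gene lists was a lower level of integrated stress response genes. This program is switched on when kinases that sense amino acid shortage, unfolded protein, heme lack or viral RNA phosphorylate the translation factor eIF2α. The transcription factor Atf4 is then translated and, with C/EBP partners, drives genes for amino acid import, amino acid synthesis and tRNA charging, and the pro-apoptotic factor Ddit3 (CHOP). Of 30 measured members 28 were below 0 with estradiol and 2 above. In 15 the 3 estradiol arrays lay wholly below the 3 vehicle arrays, and in 0 wholly above, where 5.69% of all genes lay wholly below. At an unadjusted p under 0.05, 11 were lower and 0 higher, where 2.35% of all genes were lower. After adjustment over all genes 0 passed.

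The median difference of the 30 genes was -0.18, the lowest of 43 gene lists, whose medians ran from -0.18 to 0.05, with all genes at -0.0046. The mean log2 intensity over the 30 genes was 7.78, 7.85 and 7.85 on the vehicle arrays and 7.60, 7.63 and 7.68 on the estradiol arrays, so the groups did not overlap. The median was below 0 in each of 16 alternative settings, between -0.22 and -0.12. The value nearest to 0 was that of the brightest probe set of each gene. Leaving out 1 array in turn gave -0.22 to -0.15. The list had already been seen to be lower with TiO2 than with vehicle on the same vehicle arrays, so its choice is no independent support.

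Ddit3 led the list by its p. It read 7.22, 7.42 and 7.28 with vehicle and 6.69, 6.76 and 6.84 with estradiol, and all 3 estradiol arrays were the lower. The difference was -0.54 ± 0.12 (SE; -0.79 to -0.30), 0.687-fold, with an adjusted p of 0.594 with limma, and 5 of its 5 probe sets were below 0. Atf4 itself read 9.94, 9.79 and 9.91 against 9.69, 9.54 and 9.78, a difference of -0.21 (-0.42 to -0.0029), without overlap. Trib3, a pseudokinase that Ddit3 and Atf4 induce, read 9.15, 9.18 and 8.99 against 8.88, 8.77 and 8.87 (-0.27, -0.48 to -0.05), again without overlap.

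The list also holds transporters of amino acids, of which 5 are named here after their values were seen, and none passed. The cystine importer Slc7a11 read 5.36, 5.49 and 5.69 with vehicle and 5.06, 4.81 and 4.89 with estradiol, a difference of -0.59 ± 0.15 (SE; -0.92 to -0.27), 0.663-fold, with an adjusted p of 0.75 with limma. Of its 16 probe sets 14 were below 0. The leucine transporter Slc7a5 read 9.44, 9.48 and 9.68 against 9.13, 9.23 and 9.37 (-0.29), and the arginine transporter Slc7a1 read 8.90, 9.12 and 9.03 against 8.84, 8.75 and 8.60 (-0.29). In these 3 genes and in Slc3a2 (-0.16), the heavy chain that Slc7a11 and Slc7a5 share, the groups did not overlap, while in the cationic amino acid transporter Slc7a3 (-0.27) they did.

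Enzymes of serine, glycine and asparagine synthesis were measured as well. Shmt2, the mitochondrial serine hydroxymethyltransferase, read 10.59, 10.75 and 10.88 against 10.39, 10.29 and 10.52 (-0.34, -0.56 to -0.12), and 12 of its 12 probe sets were below 0. Psat1, of serine synthesis, read 9.03, 9.01 and 9.05 against 8.83, 8.77 and 8.67 (-0.28), and the asparagine synthetase Asns 9.58, 9.58 and 9.45 against 9.21, 9.40 and 9.25 (-0.24). None of these 3 overlapped, while Phgdh (-0.08), Psph (-0.14) and Mthfd2 (-0.14) did.

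The tRNA synthetases and the remaining members were in the same direction with few exceptions. The alanyl-tRNA synthetase Aars read 9.86, 9.99 and 9.90 with vehicle and 9.64, 9.59 and 9.67 with estradiol (-0.28, -0.48 to -0.09), and Wars (-0.20), Gars (-0.12) and the tRNA exporter Xpot (-0.20) were also wholly below. Chac1, which degrades glutathione, read 8.03, 8.0 and 8.30 against 7.54, 7.82 and 7.99 (-0.32, -0.61 to -0.04). The stress-induced factor Atf3 read 10.61, 10.67 and 10.51 against 10.51, 10.64 and 10.63, a difference of -0.0044. The 2 members above 0 were the mTORC1 inhibitor Ddit4 (0.14, -0.18 to 0.47) and the lipoprotein receptor Vldlr (0.04, -0.30 to 0.39). Genes of the unfolded protein response, a separate list of 27, had a median of -0.0098, with the secreted factor Manf at 0.34 (0.04 to 0.64) and the chaperone Hspa5 at 0.21 (-0.08 to 0.50).

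**Figure D3:**
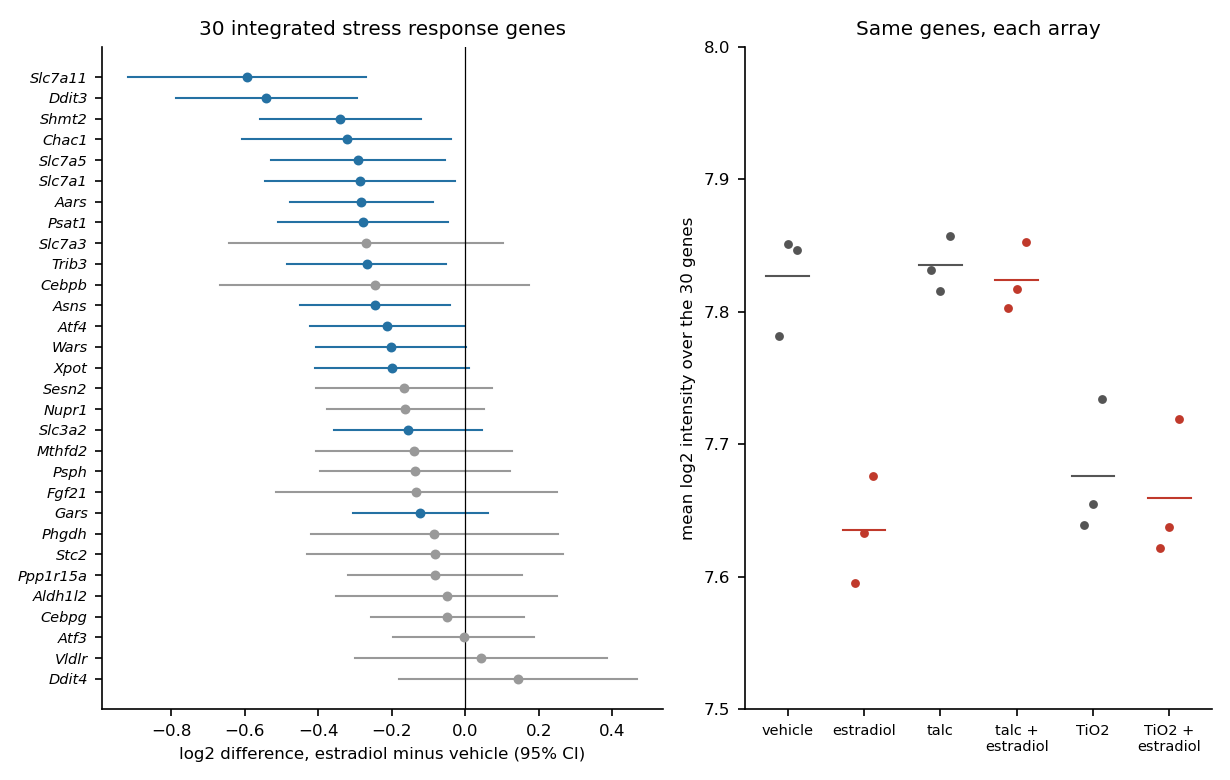
Left, log2 difference between estradiol and vehicle (x axis) with its 95% confidence interval for each of 30 integrated stress response genes (y axis); blue marks the 15 whose estradiol arrays all lay below the vehicle arrays. Right, mean log2 intensity over the 30 genes (y axis, which does not start at 0) for each array of the 6 groups (x axis), with the group mean as a bar; the estradiol arrays read 7.60 to 7.68 and the vehicle arrays 7.78 to 7.85.

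The promoters of 4 of these genes are shown because Atf4 and C/EBP factors bind a known composite site in several genes of the program. The 4 were picked after their values were seen, from members that carry the site and separated the groups. The site was searched as TGATGNAA on both strands in windows from 250 bases before to 50 after the start of each gene (RefSeq, GRCm38.p6). It occurred in 3.97% of 32851 windows, in 3.83% of the measured genes with a window, and in 10 of the 26 list members with one. Capitals mark the match, as these letters or as their reverse complement.
Slc7a11, chr3:50443564-50443863, minus strand: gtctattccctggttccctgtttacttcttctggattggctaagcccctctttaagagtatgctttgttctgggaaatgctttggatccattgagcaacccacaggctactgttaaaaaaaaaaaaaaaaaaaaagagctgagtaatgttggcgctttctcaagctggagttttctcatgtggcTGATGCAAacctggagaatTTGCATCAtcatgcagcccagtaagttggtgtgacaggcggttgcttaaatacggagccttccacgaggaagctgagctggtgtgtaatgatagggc
Chac1, chr2:119350992-119351291, plus strand: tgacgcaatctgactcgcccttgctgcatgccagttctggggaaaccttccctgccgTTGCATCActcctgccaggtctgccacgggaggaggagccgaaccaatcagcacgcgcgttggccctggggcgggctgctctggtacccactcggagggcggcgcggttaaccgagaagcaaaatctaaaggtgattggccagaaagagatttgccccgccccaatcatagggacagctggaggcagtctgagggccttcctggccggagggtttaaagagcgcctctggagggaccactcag
Trib3, chr2:152344011-152344310, minus strand: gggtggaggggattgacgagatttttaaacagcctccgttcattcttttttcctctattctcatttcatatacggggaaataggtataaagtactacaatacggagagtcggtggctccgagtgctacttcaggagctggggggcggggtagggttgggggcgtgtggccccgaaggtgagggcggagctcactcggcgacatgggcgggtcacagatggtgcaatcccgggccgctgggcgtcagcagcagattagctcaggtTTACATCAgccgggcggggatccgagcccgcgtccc
Asns, chr6:7693160-7693459, minus strand: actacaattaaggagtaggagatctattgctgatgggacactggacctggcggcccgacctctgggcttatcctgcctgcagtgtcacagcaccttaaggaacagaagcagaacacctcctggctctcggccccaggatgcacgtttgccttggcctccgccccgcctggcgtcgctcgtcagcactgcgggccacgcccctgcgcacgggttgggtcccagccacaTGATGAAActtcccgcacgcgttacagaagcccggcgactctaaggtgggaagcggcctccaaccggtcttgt

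In Slc7a11 the 2 matches began at positions -66 and -47 from the start site, in Chac1 at -193, in Trib3 at 14 and in Asns at -23. Over all 679 measured genes with a match, the median difference with estradiol was 0.0001, with 18 higher and 23 lower at an unadjusted p under 0.05 (2.51% and 2.35% of all genes), and all measured genes with a window had a median of -0.0061. The other 6 list members with a match were Atf3 (-0.0044), Nupr1 (-0.16), Vldlr (0.04), Aars (-0.28), Gars (-0.12) and Fgf21 (-0.13), and Atf3, Nupr1, Vldlr and Fgf21 overlapped between the groups. A match is a description of these letters.

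The estrogen response element itself was rare in the same windows. The palindrome GGTCANNNTGACC, searched on both strands, occurred in 23 of 32851 windows (0.07%) and in 10 measured genes (0.0565%). It was in 0 of the 20 estrogen responsive genes with a window and in 0 of the 7 receptors. The median difference of the 10 genes was -0.16. At an unadjusted p under 0.05, 2 were lower (2.35% of all genes), Evx2 (-0.50), which overlapped between the groups, and Tex45 (-0.45). Zscan4b, Zscan4c and Zscan4f, related genes among the 10, hold the same matched letters. Both Evx2 and Tex45 stood below the median level of all genes. Of the 10, Cd300c, a receptor of myeloid cells, and the phosphodiesterase Pde10a stood above that level, and their windows are given with the palindrome in capitals.
Cd300c, chr11:114960458-114960757, minus strand: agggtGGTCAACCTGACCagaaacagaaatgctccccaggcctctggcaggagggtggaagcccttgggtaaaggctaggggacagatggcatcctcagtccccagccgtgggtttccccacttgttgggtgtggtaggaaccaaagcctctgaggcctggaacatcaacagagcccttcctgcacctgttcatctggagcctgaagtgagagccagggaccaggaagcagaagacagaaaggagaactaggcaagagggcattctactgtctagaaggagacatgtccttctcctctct
Pde10a, chr17:8849735-8850034, plus strand: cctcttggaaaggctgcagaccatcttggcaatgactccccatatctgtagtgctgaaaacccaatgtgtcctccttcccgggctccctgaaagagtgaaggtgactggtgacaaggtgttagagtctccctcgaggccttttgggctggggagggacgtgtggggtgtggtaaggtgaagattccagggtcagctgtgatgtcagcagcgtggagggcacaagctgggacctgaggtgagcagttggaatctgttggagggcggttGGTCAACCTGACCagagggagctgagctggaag

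Cd300c read 5.42 ± 0.18 with vehicle and 5.49 ± 0.23 with estradiol (SD, n = 3), a difference of 0.07 (-0.37 to 0.52), and Pde10a read 6.20 ± 0.05 and 6.0 ± 0.25 (SD, n = 3), a difference of -0.20 (-0.49 to 0.10). Both overlapped between the groups. The single arm GGTCA of the palindrome occurred in 40.5% of windows, and the 7516 measured genes with it had a median of -0.0075. The AP-1 site TGANTCA, to which estrogen receptors can be tethered, occurred in 7.81% of windows, and its 1482 measured genes had a median of 0.0052.

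The 24 leading genes were the 12 higher and 12 lower genes with the smallest p that met a rule. Their arrays did not overlap, and their mean in either group was above the median of all genes. Of the 24, 22 remained when only genes above the median level were kept. None of the 24 passed, and by this rule all separate the groups, so their values are a description. Among the higher genes, the oxysterol receptor Gpr183, which guides immune cell migration, read 7.67, 7.84 and 7.85 with vehicle and 8.12, 8.26 and 8.13 with estradiol, a difference of 0.39 ± 0.09 (SE; 0.19 to 0.58). Of its 3 probe sets 3 were above 0. Jsrp1, a protein of the junctional sarcoplasmic reticulum, read 4.65, 4.80 and 4.81 against 5.41, 5.26 and 5.33 (0.58 ± 0.11 SE), with the smallest p of these genes and an adjusted p of 0.534 with limma.

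Il18bp, the soluble antagonist of interleukin-18, read 4.83, 4.72 and 4.97 against 5.32, 5.31 and 5.30 (0.47), and Amd1, an enzyme of polyamine synthesis with 1 probe set, read 8.54, 8.23 and 8.31 against 8.95, 8.71 and 8.94 (0.51). Ypel3 differed by 0.35 with 10 of its 10 probe sets above 0. The others were Klk8 (0.57), Smok3b (1.02), Rpl5 (0.88), Rpl37a (0.42), Vmn2r33 (0.96), Selenok-ps1 (0.56) and Snrpa (0.50). With the brightest probe set alone, Jsrp1 gave 0.16, Il18bp 0.05 and Rpl5 0.02. Of the 12 higher genes 7 rested on 1 or 2 probe sets, and several, such as the ribosomal protein genes, have near-identical copies that probes can share. Of the 12 lower genes 0 rested on so few.

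Among the lower genes Mrc1, the mannose receptor and a marker of alternative activation, read 6.57, 6.38 and 6.64 with vehicle and 5.78, 5.87 and 6.13 with estradiol. The difference was -0.60 ± 0.14 (SE; -0.91 to -0.30), and 23 of its 24 probe sets were below 0, while its brightest probe set gave -0.02. Cth, which makes cysteine from cystathionine, read 8.98, 8.88 and 8.82 against 8.46, 8.34 and 8.34 (-0.52), with 13 of 13 probe sets below 0. Hal, which degrades histidine, read 8.40, 8.55 and 8.76 against 8.08, 8.09 and 8.27 (-0.43).

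The ubiquitin ligase Ubox5 had the largest difference of the 12. It read 6.25, 6.22 and 6.37 with vehicle and 5.28, 5.32 and 5.80 with estradiol (-0.81 ± 0.18 SE). Ifi47, an interferon-inducible GTPase, read 6.0, 6.07 and 5.57 against 5.45, 4.94 and 5.24 (-0.67), and its brightest probe set gave 0.06. Ddit3 and Slc7a11, described above, belong here too. The last 5 were Coa4 (-0.45), Gmeb1 (-0.45), Myadml2 (-0.48), Magi1 (-0.60) and Nup35 (-0.42). With the brightest probe set 3 of the 24 genes changed sign, Ifi47, Gmeb1 and Nup35.

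**Figure D4:**
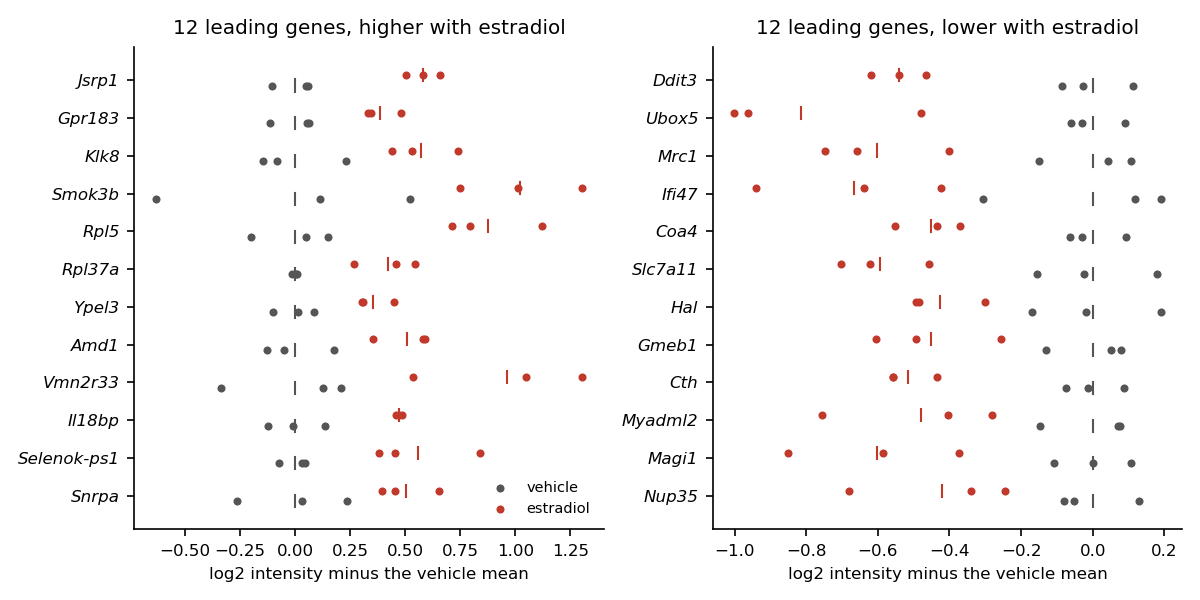
Log2 intensity minus the vehicle mean (x axis) for each vehicle array (grey) and estradiol array (red) of the 24 leading genes (y axis); ticks mark group means. By the rule that chose them the points of the groups do not overlap, with Jsrp1 at 0.58 and Ddit3 at -0.54.

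Inflammatory genes, for which estrogen is best known in macrophages, gave small values in both directions. Of 21 classical activation genes 13 were above 0, with a median of 0.05, which was -0.03 without vehicle replicate 1. The inducible cyclooxygenase Ptgs2 read 5.31, 5.37 and 5.68 with vehicle and 4.66, 4.94 and 5.35 with estradiol (-0.47, -0.89 to -0.05), and Nos2, the inducible nitric oxide synthase, 5.16, 5.31 and 5.78 against 5.92, 5.46 and 5.72 (0.29, -0.08 to 0.65). Both overlapped. Of 33 cytokines and chemokines 18 were above 0, with a median of 0.02 that was -0.0068 when array medians were subtracted.

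Il15, a growth factor for T and NK cells, read 8.50, 8.56 and 8.38 against 8.78, 8.83 and 8.62 (0.27, 0.02 to 0.51), and Csf1, the macrophage growth factor, 5.90, 5.93 and 5.93 against 5.76, 5.26 and 5.74 (-0.33, -0.64 to -0.03). In these 2 the groups did not overlap, while the monocyte chemokine Ccl2 overlapped (-0.58, -1.28 to 0.13). The 24 genes of NF-kB feedback had a list mean that was lower on all 3 estradiol arrays, 7.70, 7.68 and 7.68 against 7.75, 7.74 and 7.79. Their median was -0.05, and -0.0021 without vehicle replicate 3. The inhibitor Nfkbia read 8.61, 8.62 and 8.60 against 8.55, 8.38 and 8.29 (-0.20, -0.41 to 0.01), and the subunit Nfkb2 8.49, 8.39 and 8.39 against 8.30, 8.11 and 8.29 (-0.19, -0.40 to 0.02). Neither overlapped, and 0 of the 24 genes reached an unadjusted p under 0.05. Over the 24 genes the arrays lay wholly higher for 1 and wholly lower for 4 (4.9% and 5.69% of all genes).

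Among receptors and sensors, the RNA receptor Tlr8 read 5.96, 5.83 and 6.15 with vehicle and 5.21, 5.47 and 5.57 with estradiol (-0.56, -0.96 to -0.16). The inflammasome sensor Nlrp3 read 7.91, 7.96 and 7.79 against 8.27, 8.18 and 8.26 (0.35, 0.07 to 0.62), with 13 of 13 probe sets above 0. Naip2, a sensor of bacterial proteins in the same list of 19, read 6.53, 6.27 and 7.10 against 6.44, 5.23 and 6.32 (-0.64, -1.21 to -0.07) and overlapped between the groups, and the list median was -0.04. The interleukin-10 receptor chain Il10ra read 9.31, 9.45 and 9.33 against 9.67, 9.53 and 9.59 (0.23, 0.05 to 0.42). Tlr8, Nlrp3 and Il10ra separated the groups, with adjusted p-values of 0.976, 0.976 and 0.976 with limma. Of 40 type I interferon response genes 26 were below 0, with a median of -0.06, and 2 were higher and 1 lower at an unadjusted p under 0.05 (2.51% and 2.35% of all genes). Among these, Ifit3b (0.75) and Mx2 (-0.52) stood below the median level of all genes.

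Antigen presentation held 4 members that were higher at an unadjusted p under 0.05 and 0 lower, of 25, where 2.51% of all genes were higher and 2.35% lower. The class II chain H2-Eb1 read 5.04, 5.26 and 5.16 with vehicle and 5.35, 5.57 and 5.76 with estradiol (0.40, 0.10 to 0.71), and H2-T23, a nonclassical class I molecule, 6.06, 5.79 and 6.20 against 6.32, 6.47 and 6.25 (0.33, 0.04 to 0.62), without overlap in either. H2-Aa (0.30) and H2-K1 (0.33) overlapped between the groups. The median of the list was 0.03, and genes of this complex have similar sequences that probes can share. Phagocytic and scavenger receptors had a list mean lower on all 3 estradiol arrays, 7.17, 7.23 and 7.24 against 7.26, 7.27 and 7.25. The β-glucan receptor Clec7a read 7.93, 7.83 and 7.83 against 7.28, 7.66 and 7.72 (-0.31, -0.66 to 0.04). The list median of -0.05 changed sign in 3 of 16 alternative settings. Over its 34 genes the arrays lay wholly higher for 3 and wholly lower for 7 (4.9% and 5.69% of all genes).

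Lipid genes gave small values as well. The cholesterol exporter Abcg1 read 9.77, 9.81 and 9.83 with vehicle and 9.45, 9.42 and 9.63 with estradiol (-0.30, -0.52 to -0.08), and Abca1, which loads cholesterol onto apolipoproteins, 8.15, 8.17 and 8.28 against 8.12, 7.86 and 8.02 (-0.20, -0.41 to 0.02). The groups did not overlap in either. Over 18 genes of steroid and oxysterol transport and esterification, the arrays lay wholly higher for 0 and wholly lower for 5 (4.9% and 5.69% of all genes). Of 21 genes of LXR targets and fatty acid synthesis 17 were below 0, with a median of -0.06, and 0.004 with the brightest probe set, where the median of all genes was 0.04. Of 20 cholesterol synthesis genes 12 were below 0, with a median of -0.02 that changed sign in 3 of 16 settings.

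Of 32 hypoxia and glycolysis genes 19 were above 0, with a median of 0.05 and a list mean that overlapped between the groups. The arrays lay wholly higher for 5 of them and wholly lower for 0, where the shares of all genes were 4.9% and 5.69%. Ankrd37, a hypoxia-induced gene, read 9.69, 9.72 and 9.48 with vehicle and 9.96, 10.06 and 9.94 with estradiol (0.36, 0.10 to 0.62), and the mitophagy receptor Bnip3l 9.03, 8.94 and 8.69 against 9.35, 9.12 and 9.24 (0.35, 0.03 to 0.68). Both separated the groups. The glycolytic enzymes Pgk1 (-0.0059) and Aldoc (-0.0007) were at 0. Among 25 p53 targets, the stress cytokine Gdf15 read 4.96, 5.57 and 5.27 against 5.77, 5.66 and 5.73 (0.45, 0.10 to 0.81), while the list median was -0.0087. For these targets the arrays lay wholly higher for 5 and wholly lower for 1. Of 37 mitosis genes 31 were below 0, with a median of -0.06, an array mean that overlapped and 1 member lower at an unadjusted p under 0.05 (2.35% of all genes), the spindle protein Nusap1 (-0.26). Arrays lay wholly higher for 1 mitosis gene and wholly lower for 6, beside the same shares of all genes, 4.9% and 5.69%. Among matrix genes Tgfbi, a secreted adhesion protein, read 8.70, 8.83 and 8.69 against 8.44, 8.38 and 8.43 (-0.32, -0.54 to -0.11), without overlap. The iron hormone Hamp differed by -0.98 (-1.44 to -0.53), at percentile 2.34 and with 2 probe sets.

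Over the 960 genes of the 43 lists, 23 were higher and 27 lower at an unadjusted p under 0.05, 5.21% in all beside 4.87% of all genes, and 0 differed by more than 2-fold. The list mean was lower on all 3 estradiol arrays for 6 lists and higher for 1, the 18 osteoclast-like genes, at 6.03, 6.07 and 6.06 against 5.94, 6.0 and 5.99. The median of these 18 was 0.03. In the talc and TiO2 arms it was -0.01 and -0.02, and their list mean overlapped. Besides the stress response, NF-kB, phagocytic and LXR lists, the lower lists were the receptor coregulators and the costimulatory ligands.

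**Figure D5:**
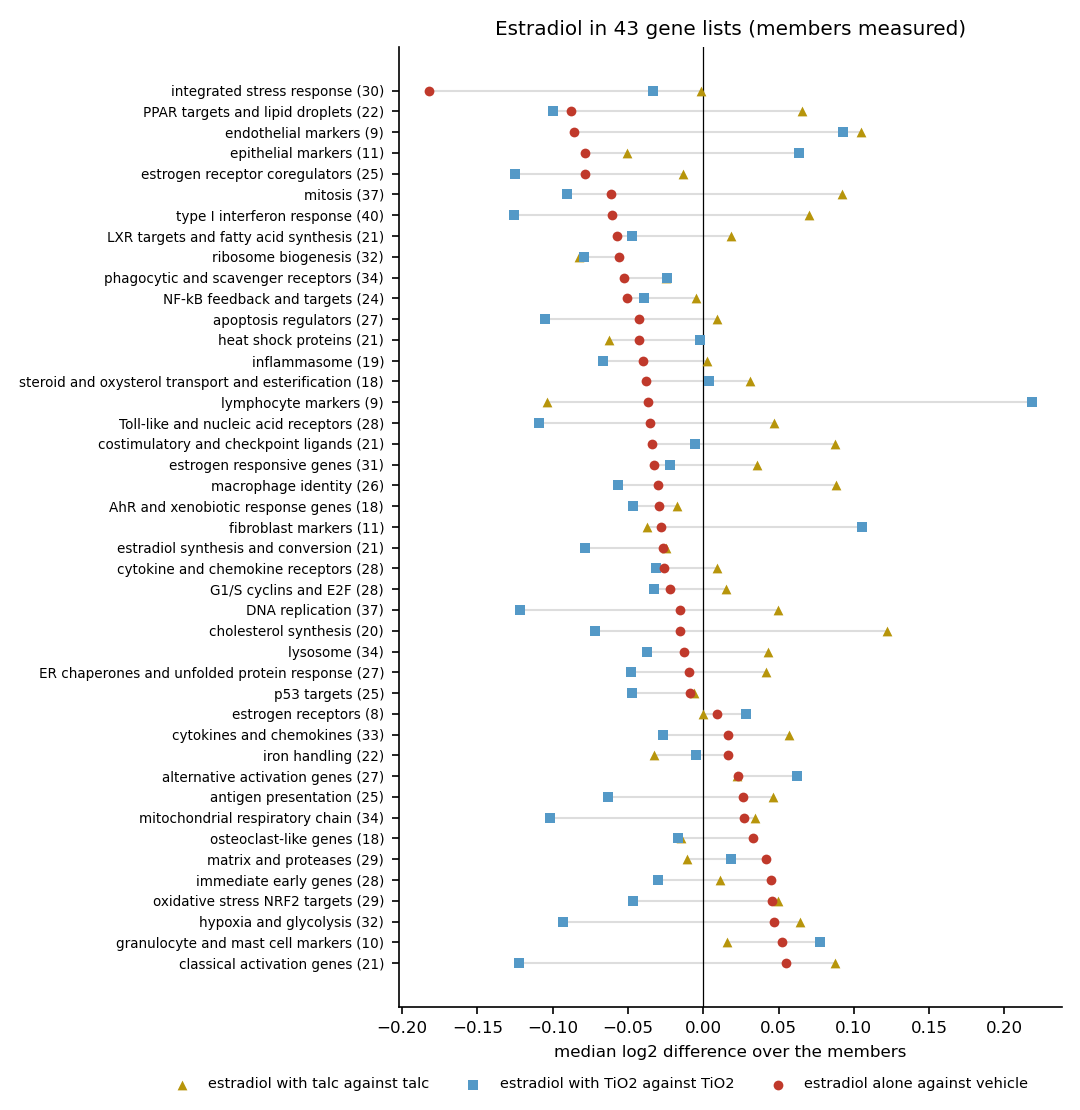
Median log2 difference with estradiol (x axis) over the members of each of 43 gene lists (y axis, number of genes in brackets) without particles (red circles), with talc (triangles) and with TiO2 (squares). Without particles the integrated stress response has the lowest median, -0.18, and the other lists lie between -0.09 and 0.05.

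The same hormone contrast in the particle arms, on arrays not used above, shows how far these differences recurred. With talc, 0 genes passed (0%), with a smallest adjusted p of 0.435, and 1521 reached an unadjusted p under 0.05 (6.58%). With TiO2, 1 gene was higher (0.00433%) and 1 lower (0.00433%), and 3012 reached an unadjusted p under 0.05 (13%). The predicted gene D630033O11Rik was higher, at 0.85 ± 0.12 (SE, adjusted p = 0.0385 with limma), and Lipt1, a lipoyltransferase, lower, at -0.90 ± 0.13 (SE, adjusted p = 0.0414 with limma). Without particles these 2 differed by -0.32 and 0.13.

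Across the 23102 genes, the differences without particles had a Pearson correlation of -0.04 with those in the talc arm (Spearman -0.05) and of 0.04 with those in the TiO2 arm (Spearman 0.05). The differences in the talc and TiO2 arms had a Pearson correlation of -0.21 with each other (Spearman -0.23). Genes are not independent replicates, and these values describe the arrays. Of the 24 leading genes 9 had the same direction with talc, 12 with TiO2 and 3 with both. Ddit3 differed by 0.08 ± 0.12 with talc and by -0.22 ± 0.12 with TiO2 (SE), Slc7a11 by 0.06 ± 0.15 and 0.15 ± 0.15, and Cyp1a1 by 0.03 ± 0.15 and 0.07 ± 0.15. Gpr183 differed by -0.07 ± 0.09 and -0.21 ± 0.09.

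For the integrated stress response, the hormone gave a median of -0.0018 with talc, with 16 of 30 genes below 0, and of -0.03 with TiO2, with 19 below 0. The list mean was between 7.82 and 7.86 on the talc arrays and between 7.80 and 7.85 with talc and estradiol. It was between 7.64 and 7.73 with TiO2 and between 7.62 and 7.72 with TiO2 and estradiol. In both particle arms the groups overlapped. The interaction, which tests whether the hormone difference is itself different with the particle, reached an unadjusted p under 0.05 for 4 of the 30 genes with talc (6.32% of all genes) and for 7 with TiO2 (8.05% of all genes), and for 0 after adjustment. For Ddit3 the interaction with talc was 0.62 ± 0.16 (SE, adjusted p = 0.639 with limma). Each interaction contains the difference between estradiol and vehicle, by which Ddit3 and this list were singled out. That choice alone pushes the interaction away from 0, so these counts and this value are a description. Over all genes 0 passed in either interaction, with smallest adjusted p-values of 0.236 and 0.0565 with limma, and with 1460 and 1860 genes at an unadjusted p under 0.05.

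Averaging the hormone contrast over the 3 arms, 9 arrays against 9, lowered the mean difference a lone gene needs to 0.62 log2 units. Opposite directions in the arms cancel in this mean. Still 0 genes passed (0%), with a smallest adjusted p of 0.451 and 1288 genes (5.58%) at an unadjusted p under 0.05. The direction was the same in all 3 arms for 4842 genes (21%). Signs agree in 3 arms by chance as well, and this share was not tested against chance. All arrays separated in all 3 arms for 1 gene higher, Prss34 (0.00433%), and for 3 lower, Cul9, Gart and Sos1 (0.013%). These genes were picked by that separation, and whether so few exceed chance was not tested. Prss34 stood below the median level of all genes, at percentile 41.7. The serine protease Prss34 differed by 0.17, 0.42 and 0.30 without particles, with talc and with TiO2. The cullin Cul9 differed by -0.30, -0.21 and -0.29, the purine synthesis enzyme Gart by -0.26, -0.16 and -0.26, and Sos1, which activates Ras, by -0.12, -0.15 and -0.21. An unadjusted p under 0.05 with 1 sign in all 3 arms was seen for 6 genes (0.026%), among them Cul9 and the polymerase subunit Rev3l (-0.27, -0.24 and -0.23). The others were 1700003E24Rik, Gm4846, Gm7919 and Krtap13-1. Esr1 differed by 0.09, -0.0059 and -0.45 in the 3 arms, and its mean difference over them was -0.12 ± 0.09 (SE).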

How the data were processed

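RNA of J774 cells was hybridised to Affymetrix arrays, 18 in all and 3 per group, and the comparison uses 6 of them. The deposited values are linear intensities per probe set, from 1.458 to 17256. The submitters' processing notes name RMA, and its version, the level of summary and the return to a linear scale are not given in the sources used here. Raw array files were not used here. Log2 was taken first. Of 269751 probe sets, 233753 carry a single gene symbol in the platform's annotation, 5106 several and 30892 none. A gene's value is the mean log2 intensity over its single-symbol probe sets (median 8 per gene, 2303 genes with 1), after 2247 old symbols were updated through the RefSeq gene table. Exon-level differences are therefore averaged. No gene was filtered out.

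Group means of all 18 arrays were fitted in 1 model with limma 3.58.1 in R 4.3.3 (lmFit, eBayes; 12 residual and 4.57 prior degrees of freedom), two-sided, with Benjamini-Hochberg adjustment over 23102 genes and a threshold of 0.05. Confidence intervals are at 95% from the same model. The number of arrays limits the precision. The fit was tested on simulated data with known differences. The arrays were taken by label, while the comparison, gene lists and rules were chosen with earlier results of these data known. Of the names in 43 lists, 40 were not matched and are not analysed here. Named genes are the 12 higher and 12 lower genes with the smallest p among those whose arrays do not overlap and whose mean in either group is above the median of all genes, without predicted and small RNA genes (89 were only counted), up to 4 members of each list by p, all estrogen receptors and a set of textbook targets. Not all of these are printed. Other list members printed, the genes that recurred in 3 arms and those with an estrogen response element were picked after their values were seen. Promoter windows of 300 bases are from RefSeq (GRCm38.p6). Alternatives were a filter on dim genes, other summaries of probe sets, quantile and median scaling, another variance model, weights per array, a fit restricted to the compared arrays, each array left out, and, added after the data were seen, a fit without replicate 3 of TiO2 plus estradiol, the dimmest array.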

Additional observations from a re-analysis of the deposited data

Results flagged for a closer look

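One probe set with no single gene symbol, among 35998 that entered no gene value, passed the test of whether the hormone difference is different with TiO2, at -2.61 ± 0.33 log2 units (SE, adjusted p = 0.0443 with limma). Its mean log2 intensity was 2.78 with vehicle and 3.80 with estradiol, and 4.54 with TiO2 and 2.96 with TiO2 plus estradiol. Each of these means lay below the median level of all genes, 4.73. The adjustment ran over probe sets within each comparison and not across comparisons. For estradiol against vehicle 0 of the 35998 probe sets passed, with a smallest adjusted p of 0.0626 and 1746 (4.85%) at an unadjusted p under 0.05.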

How the results depend on the processing

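For estradiol against vehicle the count of passing genes was 0 in each of 17 alternatives, with 1019 to 1209 genes at an unadjusted p under 0.05 when an array was left out and a smallest adjusted p of 0.064, for single probe sets. The means over 3 arms and the talc interaction also kept 0 in every alternative run. With talc, 1 gene passed when its brightest probe set stood for it, and 1 of the single probe sets. With TiO2 the 2 genes became 19 with the brightest probe set, 16 with bright probe sets only, 5 after quantile normalization, and 0 with the median over probe sets, with single probe sets, with array weights and in a fit of only the arrays compared; leaving out an array gave 0 to 2. The TiO2 interaction gave 0 to 4 when an array was left out, with 4 without TiO2 replicate 2. The cause was not tested. Of 194 named genes 0 passed in any alternative. The brightest probe set changed the sign of 58 of them and of 24 of 44 medians, that of all genes among them, which became 0.04. No paired analysis was possible because the labels number the arrays consecutively, so that no number is shared between groups. With 3 arrays per group, isolated differences under 2-fold were mostly not detectable.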

Other observations

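Several further gene lists held members that separated the groups in both directions, again without passing. Arrays lay wholly higher for 4 and wholly lower for 3 of 27 alternative activation genes. For 19 inflammasome genes these counts were 2 and 1, and for 34 lysosome genes 1 and 5. The shares of all genes were 4.9% and 5.69%, and the genes printed are examples. Of 27 alternative activation genes 16 were above 0, and Mgl2, a lectin of such macrophages, read 9.98, 9.80 and 9.76 with vehicle and 10.0, 10.08 and 10.09 with estradiol (0.21), while the transcription factor Klf4 read 7.04, 7.12 and 7.15 against 6.86, 6.87 and 6.84 (-0.25). Of 19 inflammasome genes, the lipopolysaccharide-sensing caspase Casp4 read 8.14, 8.24 and 8.05 against 7.76, 7.86 and 7.98 (-0.28) and the pore protein Gsdmd 7.89, 7.93 and 7.95 against 8.10, 7.99 and 8.18 (0.16). Of the 34 lysosome genes 20 were below 0, and the proteases Ctsl (-0.25) and Ctsc (-0.19) were lower on all 3 estradiol arrays.

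Among 29 targets of the oxidative stress factor NRF2, 17 were above 0, with a median of 0.05. Arrays lay wholly higher for 2 of them and wholly lower for 2 (4.9% and 5.69% of all genes). The largest difference was that of Slc7a11 (-0.59), described above, which was lower on all 3 estradiol arrays. The glutathione transferase Gsta3 read 3.69, 3.61 and 3.63 with vehicle and 4.24, 3.88 and 4.27 with estradiol (0.49), at percentile 29.9, and the heme oxygenase Hmox1 differed by 0.13 (-0.10 to 0.35). Of 28 immediate early genes 19 were above 0, and the AP-1 subunit Fosl2 read 7.69, 7.85 and 7.83 against 8.0, 8.17 and 7.91 (0.24). In that list the arrays lay wholly higher for 3 genes and wholly lower for 1 (4.9% and 5.69% of all genes).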
